A study of Mus musculus with 4 samples.

Results

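The genes described here are 37 mouse genes of homologous recombination, the Fanconi anaemia pathway and the checkpoint that works with them. They were chosen by gene symbol in the platform annotation. Each gene was read from its brightest probe set with a single symbol, by mean signal over 4 arrays. Of the 37 genes, 35 had such a probe set, among 18193 genes in all, and Xrcc2 and Rbbp8 had none and are not analysed here. C2C12 is an established mouse myoblast line that leaves the cell cycle and fuses into myotubes when serum is lowered. The TC array came from differentiating C2C12 cells given tranylcypromine, a compound that blocks amine oxidases including the histone demethylase LSD1 (Kdm1a). The S2101 array came from cells given S2101, an LSD1 inhibitor known here by its code name. The other 2 arrays came from cells given vehicle. All 4 samples were moved from 10% fetal bovine serum to 2% horse serum, in medium with 25 mM glucose, and RNA was collected after 48 h. No dose is stated in the labels, and each compound has 1 array. Separate cultures are not stated either, so p-values cover the spread between these 4 samples alone, and that spread may be technical. Where TC and S2101 are grouped against vehicle, the spread within that group is the difference between 2 compounds, treated as if they were replicates.

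Homologous recombination repairs broken DNA by copying the sister chromatid, and so works mainly in S and G2 phase. Broken ends are trimmed to single strands, BRCA2 and its partners prepare them to invade the intact copy, and helicases and nucleases take the joined molecules apart. The Fanconi proteins recognise crosslinks between the DNA strands and direct their removal through the same machinery, while the kinases ATR and ATM with CHK1 and CHK2 hold the cell cycle until repair is done. Many of these genes are transcribed under E2F control when cells enter S phase.

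The question here was how these transcripts stood in cells treated with an LSD1 inhibitor relative to vehicle. Of the 35 genes, 15 had a mean signal at or above 178.8, the median of all genes, and were tested on log2(signal + 50). Within these 15, 5 fell with the inhibitors: Rad51ap1, Brca1, Chek1, Clspn and Topbp1. None rose, and 10 did not pass (limma, Benjamini-Hochberg adjusted over 9097 genes at 0.05). Over all genes tested, 3.74% were called lower and 4.28% higher. At an unadjusted p under 0.05, 6 of the 15 were lower and 0 higher, where 10.4% of all genes tested were lower and 11.9% higher. Rad51ap1, Brca1 and Chek1 reached the filter only through the vehicle arrays, their inhibitor means being under it. Their entry to the test was thus tied to the change tested. The counts of 5 and 6 and the median over the 15 are therefore descriptions only. For Clspn and Topbp1 both group means were at or above the filter. The median difference was -0.30 over the 15 genes tested and 0.01 over the 9097. The count of 5 was 2 without vehicle 1, 2 without vehicle 2, 3 without the TC array and 2 without the S2101 array. In these 4 fits the difference lay between -1.56 and -1.17 for Rad51ap1 and between -0.86 and -0.72 for Brca1. Both genes stayed in by construction, since the filter still used the mean over all 4 arrays. Without the filter on dim genes Rad51ap1 was the only member still called lower, where 0.676% of all genes were called lower and 0.786% higher. Markers of proliferating cells were lower beside them: the summed signal of Mki67, Top2a, Pcna and Ccna2 was 11257 with TC and 10038 with S2101, against 15285 and 14831 with vehicle, and each of the 4 fell. Without the filter 3 of them passed and Pcna did not (adjusted p = 0.15, limma). Their part in the values of the repair genes was not tested. In bulk RNA, fewer cycling cells and less of a transcript in each cell cannot be told apart.

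**Figure D1:**
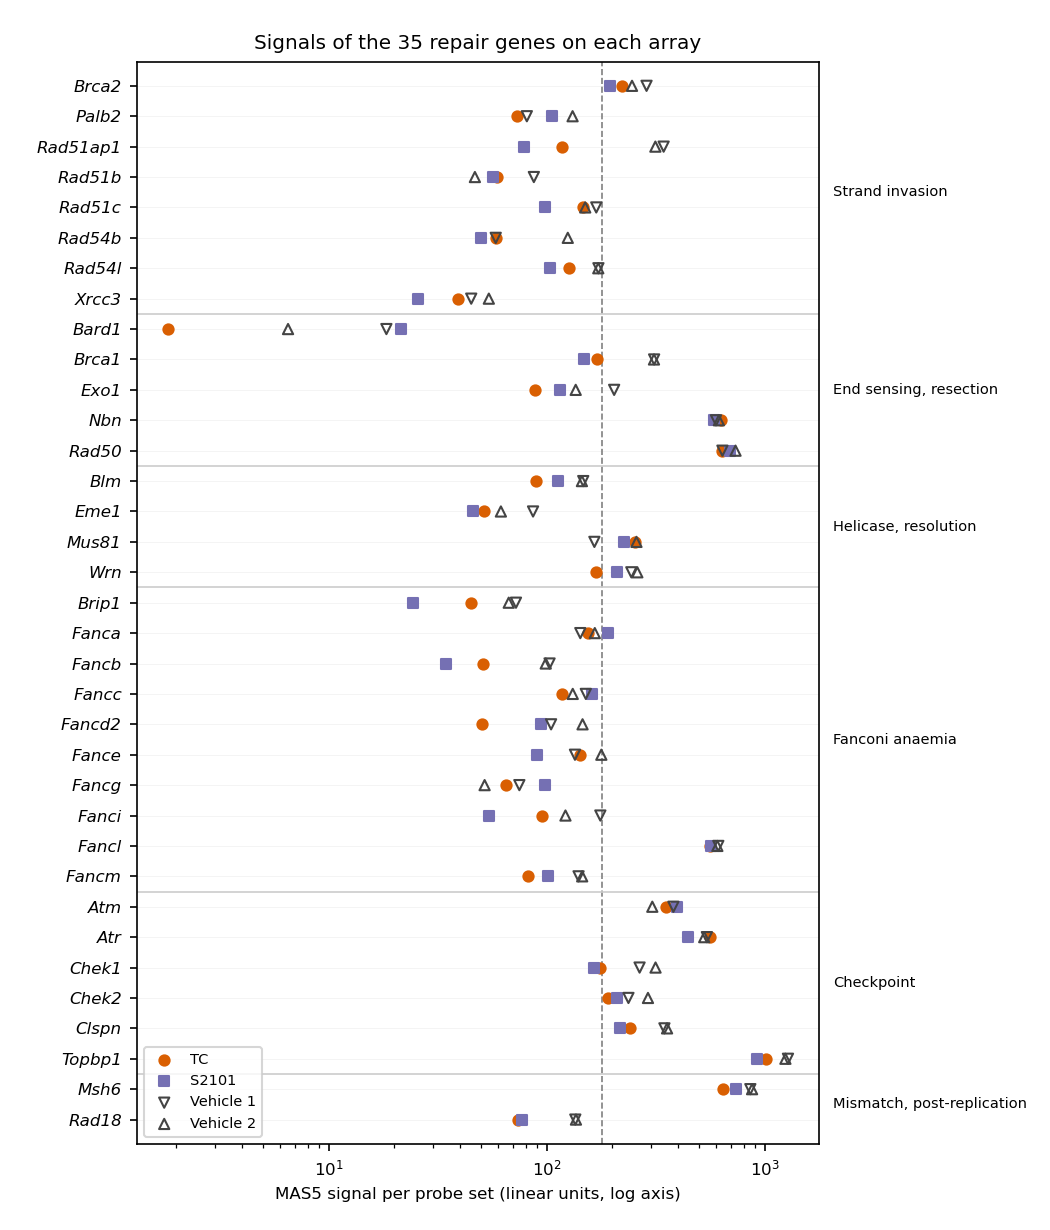
MAS5 signals of the 35 genes (log axis, linear signal units) for TC (circles), S2101 (squares) and the vehicle arrays (open triangles), 1 point per array, in order of role; the dashed line is the filter at 178.8. Rad51ap1, at 118 and 78.8 with the inhibitors against 343 and 315 with vehicle, has the widest gap among the 15 genes tested.

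Rad51ap1 encodes a protein that stimulates strand invasion into the intact duplex. On the arrays it stood at 118 with TC and 78.8 with S2101, against 343 and 315 with vehicle. Both inhibitor arrays lay far below both vehicle arrays, and the mean inhibitor signal was 29.9% of the vehicle mean. The log2 difference was -1.37 ± 0.18 (SE; adjusted p = 0.0017, limma). The gene is under the filter in both inhibitor arrays, and with every gene tested, dim or not, the adjusted p was 0.0426 (limma). All 4 Rad51ap1 probe sets had both inhibitor arrays below both vehicle arrays, with the other 3 at -0.62, -0.44 and -0.76. Leaving out single arrays moved the difference between -1.56 and -1.17, with adjusted p between 0.000857 and 0.00526 (limma). The signal lies near the offset, so the size depends on it: the difference was -1.67 with an offset of 10 and -0.74 with an offset of 250.

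Brca1 encodes the ubiquitin ligase subunit that promotes end resection and helps bring in the BRCA2 complex. The brightest Brca1 probe set read 169 with TC and 149 with S2101, against 311 and 310.2 with vehicle. The vehicle arrays were almost equal, and the inhibitor mean was 51.2% of theirs. The log2 difference was -0.79 ± 0.15 (SE; adjusted p = 0.0104, limma). Of its other 3 probe sets, all dim, 1 had both inhibitor arrays below both vehicle arrays (-0.61), 1 had them above (0.44) and 1 overlapped (-0.04). With every gene tested, dim or not, the call of Brca1, which is under the filter in both inhibitor arrays, ended (adjusted p = 0.0989, limma).

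The promoters of the 4 genes with the largest fall are shown, with those of Atr and Fancl, the tested genes with the smallest differences among those with an entry, so that sequences of genes that passed the test and genes that did not can be set side by side. Each window runs from 250 bases before the RefSeq transcript start to 50 bases from it (GRCm38.p6), 5′ to 3′ on the gene's strand. The Rad51ap1 window lay at chr6:126939538-126939837 on the minus strand. The Brca1 window lay at chr11:101551906-101552205 on the minus strand. The Chek1 window lay at chr9:36726609-36726908 on the minus strand. The Clspn window lay at chr4:126556730-126557029 on the plus strand. The Atr window lay at chr9:95857347-95857646 on the plus strand. The Fancl window lay at chr11:26386834-26387133 on the plus strand. Capitals mark matches, on either strand, to E2F motifs (TTCCCGC or TTCGCGC or TTGCCGC or TTGGCGC), the CHR motif of cell cycle genes (TTTGAA or TTCGAA) and the CCAAT box.
Rad51ap1 promoter: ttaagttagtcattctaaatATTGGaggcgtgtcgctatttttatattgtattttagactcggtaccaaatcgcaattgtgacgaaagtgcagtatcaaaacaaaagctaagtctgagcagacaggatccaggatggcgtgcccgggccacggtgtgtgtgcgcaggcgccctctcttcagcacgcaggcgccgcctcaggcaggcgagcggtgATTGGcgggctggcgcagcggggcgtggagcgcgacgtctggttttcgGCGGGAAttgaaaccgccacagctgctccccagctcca
Brca1 promoter: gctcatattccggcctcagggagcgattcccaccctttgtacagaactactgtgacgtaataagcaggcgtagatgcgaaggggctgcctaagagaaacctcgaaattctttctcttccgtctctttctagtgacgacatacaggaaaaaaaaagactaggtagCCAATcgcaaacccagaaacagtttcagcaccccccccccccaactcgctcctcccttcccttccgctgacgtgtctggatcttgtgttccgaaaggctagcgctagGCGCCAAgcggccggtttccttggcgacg
Chek1 promoter: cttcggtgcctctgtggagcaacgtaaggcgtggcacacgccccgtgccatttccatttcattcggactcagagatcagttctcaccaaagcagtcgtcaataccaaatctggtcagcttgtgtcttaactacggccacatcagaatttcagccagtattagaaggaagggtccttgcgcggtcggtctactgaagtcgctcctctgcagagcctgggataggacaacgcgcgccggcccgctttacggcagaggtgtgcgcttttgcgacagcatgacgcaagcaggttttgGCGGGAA
Clspn promoter: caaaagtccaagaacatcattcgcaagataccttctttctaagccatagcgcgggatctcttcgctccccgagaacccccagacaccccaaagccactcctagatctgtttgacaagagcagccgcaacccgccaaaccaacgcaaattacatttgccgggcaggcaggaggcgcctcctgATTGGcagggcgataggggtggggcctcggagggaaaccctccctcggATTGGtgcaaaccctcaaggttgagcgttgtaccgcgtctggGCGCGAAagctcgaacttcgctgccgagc
Atr promoter: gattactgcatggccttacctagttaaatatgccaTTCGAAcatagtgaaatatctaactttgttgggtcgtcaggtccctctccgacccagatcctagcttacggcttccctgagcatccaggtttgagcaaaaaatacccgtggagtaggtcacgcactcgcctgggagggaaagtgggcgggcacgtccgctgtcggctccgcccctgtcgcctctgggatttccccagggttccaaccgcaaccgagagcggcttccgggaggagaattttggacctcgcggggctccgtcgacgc
Fancl promoter: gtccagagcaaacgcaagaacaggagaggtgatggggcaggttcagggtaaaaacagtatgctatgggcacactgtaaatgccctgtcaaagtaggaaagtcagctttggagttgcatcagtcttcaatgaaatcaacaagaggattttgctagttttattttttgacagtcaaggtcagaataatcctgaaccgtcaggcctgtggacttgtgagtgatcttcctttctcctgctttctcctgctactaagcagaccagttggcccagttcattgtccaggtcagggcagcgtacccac

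The Rad51ap1, Brca1, Chek1 and Clspn windows each held 1 E2F match, which began 13, 22, 44 and 22 bases into the transcript. All 4 read on the strand opposite to the gene. Rad51ap1 and Clspn also held 2 CCAAT matches each and Brca1 held 1. The Atr window held a CHR match alone, and the Fancl window held no match to these letters. No matches overlapped in the 6 windows shown, while in the Topbp1 window, not shown, 2 E2F matches overlapped. Sequences were found for 29 of the 37 genes in 33 windows. An E2F match was present for 17 of the 29 genes, for all 5 that fell and for 4 of the 7 with a window that were tested and did not pass. Among these 4, the matches of Atm and Msh6 also began just after the start, at 16 and 17 bases into the transcript, and those of Brca2 and Chek2 lay upstream, as did both of Topbp1, which fell. By window it was 54.5% for these genes, against 17% of 9564 windows of genes tested and 9.57% of all 32851 windows. CCAAT matches were in 57.6% of their windows, 37.4% of those of genes tested and 37.4% of all. CHR matches were in 12.1%, 13.6% and 19.2%. Median GC content was 58% in these windows, 61.3% for genes tested and 52.7% for all. A match describes letters in the window and does not show that a factor binds there.

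**Figure D2:**
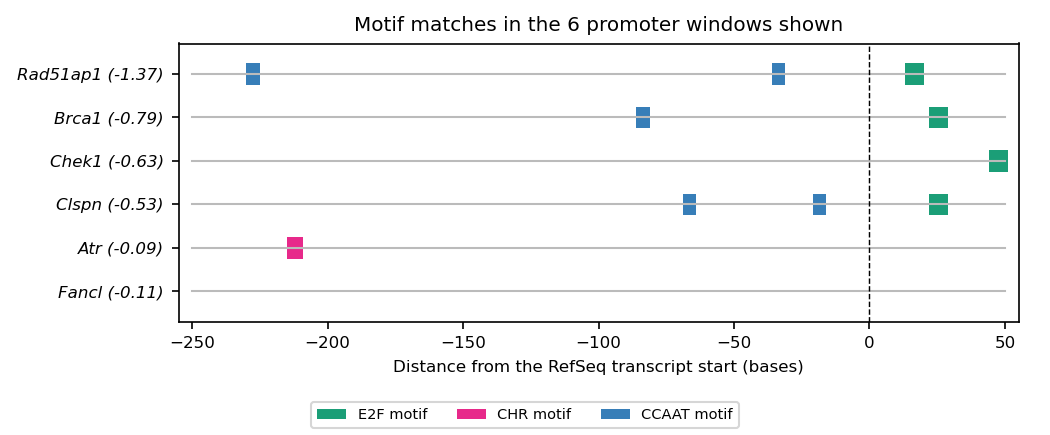
Positions of motif matches in the 6 promoter windows (x axis, bases from the RefSeq transcript start), with each gene's inhibitor minus vehicle difference in log2(signal + 50) in brackets. Rad51ap1, Brca1, Chek1 and Clspn carry an E2F match (green) just after the start, and Atr and Fancl carry none; other tested genes that did not pass, not drawn, also carry one.

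Among genes of strand invasion, 2 of 8 were bright enough to test. Rad51ap1 fell, as above. Brca2, whose product prepares resected ends for strand invasion, had signals of 222 with TC and 196 with S2101, against 287 and 246 with vehicle. Its groups did not overlap, but at -0.29 ± 0.15 on the log2 scale the adjusted p was 0.311 (limma). Rad54l, a motor protein that remodels chromatin during strand invasion, was below the filter at 126 with TC and 104 with S2101, against 173 and 172 with vehicle. All 4 of its probe sets had both inhibitor arrays below both vehicle arrays. Rad51c (146 and 98.1 with TC and S2101, against 169 and 150.1) and Xrcc3 (39.1 and 25.6, against 45 and 54.2), whose products form a complex, also lay below vehicle on both arrays. The other probe set of each overlapped. The groups overlapped for Rad51b (58.8 and 56.7 with TC and S2101, against 87.3 and 46.8), for Rad54b (58.5 and 50.2, against 58.3 and 125) and for the BRCA2 partner Palb2 (73.2 and 106, against 81 and 131). In each of these 3 genes the vehicle arrays were farther apart than the inhibitor and vehicle means.

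In the end-sensing and resection group the members took different values. Rad50 and Nbn, which hold and sense broken ends in the MRN complex, stood close to vehicle. Rad50 had 639 and 690.3 with TC and S2101, against 639 and 734, a log2 difference of -0.04 ± 0.11 (adjusted p = 0.877, limma). Nbn had 627 and 584 with TC and S2101, against 597 and 616 with vehicle, a log2 difference of -0.00 ± 0.11 (adjusted p = 0.992, limma). The groups overlapped for both. Exo1, the exonuclease of long-range resection, was below the filter at 88.2 with TC and 115 with S2101, against 204 and 136 with vehicle, so that the groups did not overlap although the vehicle arrays were far apart. Bard1, the partner of BRCA1, was at 1.82 with TC and 21.4 with S2101, against 18.4 and 6.51 with vehicle, too dim to compare.

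Of the helicases and nucleases, Wrn and Mus81 were tested and neither passed. The RecQ helicase Wrn had signals of 167 with TC and 209 with S2101, against 244 and 260.2 with vehicle (log2 difference -0.35 ± 0.16; adjusted p = 0.239, limma). Of the 3 Wrn probe sets 2 overlapped. Mus81, the nuclease that cuts stalled forks and joint molecules, had 254 with TC and 227 with S2101, against 165 and 258 with vehicle (0.17 ± 0.19; adjusted p = 0.661, limma). The groups overlapped for Mus81, whose vehicle arrays differed by 0.52 on the log2 scale. The other RecQ helicase, Blm, was below the filter but did not overlap, at 89.5 with TC and 112 with S2101, against 147 and 145 with vehicle. Eme1, the partner of MUS81, was lower on both inhibitor arrays too (51.4 and 45.9, against 86.5 and 61.6).

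The Fanconi genes were nearly all dim, with only Fancl of 10 bright enough to test. Fancl, the ubiquitin ligase of the core complex, had 559.8 with TC and 563.6 with S2101, against 612 and 606 with vehicle. Both inhibitor arrays lay just below both vehicle arrays, with -0.11 ± 0.10 on the log2 scale and an adjusted p of 0.61 (limma). Its other, very dim probe set had them above. Fancb, a core complex subunit, had the lowest inhibitor level relative to vehicle of the 20 genes under the filter, at 51.1 with TC and 34.7 with S2101, against 103 and 98.9, or 42.5% of the vehicle mean. Fanci and Fancd2 form the pair that the core complex marks with ubiquitin. Fanci was at 94.6 and 54.2 with TC and S2101, against 176 and 122 with vehicle, and Fancd2 at 50.2 and 94.0, against 105 and 146. Neither overlapped on the probe set used, but 3 of the 4 Fancd2 probe sets and the other Fanci probe set did. The translocase Fancm (82.2 and 101, against 140 and 145) and the helicase Brip1 (44.8 and 24.5, against 72.2 and 66.9) were lower on both arrays as well. Of the 3 Fancm probe sets, though, 1 was below, 1 above and 1 overlapped. The core complex subunits Fanca, Fancc, Fance and Fancg overlapped between the groups. Fanca read 155 and 191 with TC and S2101, against 142 and 166 with vehicle, and Fancc 117 and 161, against 151 and 132. Fance read 141 and 90.4 with TC and S2101, against 135 and 178 with vehicle. Fancg, at 65.1 and 98.4 against 74.9 and 51.9, had the highest inhibitor signal relative to vehicle of the 35 genes, 129%.

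The 6 checkpoint genes all reached the filter by their mean over the 4 arrays, Chek1 only through vehicle, and 3 of them fell. Over all genes tested 3.74% were called lower, and the count of 3 is a description only, as Chek1 entered through vehicle. Chek1 encodes the kinase CHK1, which ATR switches on at stalled forks. Chek1 read 175 with TC and 165 with S2101, against 266 and 315 with vehicle (log2 difference -0.63 ± 0.16; adjusted p = 0.036, limma). Both inhibitor arrays lay well below both vehicle arrays, and 3 of its 5 probe sets showed that order while 2 dim ones overlapped. The probe set used can match more than 1 transcript, by its name suffix, and the next brightest stood at -0.85. Clspn encodes claspin, the adaptor between ATR and CHK1. It had 242 with TC and 216 with S2101, against 346 and 356 with vehicle (-0.53 ± 0.14; adjusted p = 0.0463, limma). Topbp1 encodes the activator of ATR. It had 1012 with TC and 920.3 with S2101, against 1276 and 1242 with vehicle (-0.37 ± 0.09; adjusted p = 0.0377, limma). The 3 products act in 1 relay, from ATR to CHK1.

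These 3 calls needed all or nearly all of the 4 arrays. Leaving out vehicle 1 gave adjusted p = 0.0531 for Chek1, 0.132 for Clspn and 0.141 for Topbp1 (limma). Without vehicle 2 they were 0.242, 0.184 and 0.0987. Without the S2101 array they were 0.0857, 0.126 and 0.106. Without the TC array Chek1 (0.0739) and Clspn (0.0703) no longer passed, and Topbp1 did (0.0356). With every gene tested, dim or not, adjusted p was 0.166 for Chek1, 0.177 for Clspn and 0.109 for Topbp1 (limma). The differences kept their sign in each of these fits.

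The kinases upstream and the ATM branch did not pass. Atr had 561 with TC and 444 with S2101, against 542 and 527 with vehicle (-0.09 ± 0.13; adjusted p = 0.743, limma). Atm had 354 with TC and 395 with S2101, against 381 and 305 with vehicle (0.12 ± 0.14; adjusted p = 0.693, limma). The groups overlapped for both kinases. Chek2, the target of ATM, had 191 with TC and 209.5 with S2101, against 237 and 291 with vehicle (-0.32 ± 0.16; adjusted p = 0.267, limma), with no overlap. Whether the fall of Chek1 differed from the value of Atr was not tested.

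The last 2 genes belong to neighbouring pathways. Msh6, a mismatch recognition subunit, had 646 with TC and 740.2 with S2101, against 858 and 874 with vehicle. Both inhibitor arrays were lower, and the log2 difference of -0.30 ± 0.10 had an unadjusted p = 0.0151 but an adjusted p = 0.111 (limma). Rad18, the ligase that starts damage bypass at stalled forks, was below the filter at 73.7 with TC and 76.9 with S2101, against 135 and 136 with vehicle, or 55.6% of the vehicle mean. Its arrays were close within each group, but 2 of its 4 probe sets overlapped.

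Read by the order of arrays alone, which needs no filter, both inhibitor arrays lay below both vehicle arrays in 22 of the 35 genes. They lay above in 0, and the groups overlapped in 13. Over all 18193 genes 22.2% were below and 21% above. Among the 20 genes under the filter 12 were below, where 20.9% of all genes under it were. Among the 15 tested 10 were below, where 23.4% of all genes tested were. The count of 10 is a description only, as Rad51ap1, Brca1 and Chek1 entered the test only through vehicle. The order was less uniform in the 43 further probe sets of 25 of these genes, of which 14 (32.6%) were below and 7 (16.3%) above. For all probe sets with 1 symbol these shares were 22.3% and 18.8%. All but 2 of those 43 probe sets had a mean signal under the filter. In these 2, of Atm and Mus81, both inhibitor arrays lay above both vehicle arrays.

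With TC and S2101 taken apart, 2 genes fell with TC and 3 with S2101 (limma with 3 groups), where 3.81% and 3.33% of all genes did. Each compound has a single array, assumed to vary as the vehicle pair does, and both are set against the same vehicle arrays. The counts of 2 and 3 are descriptions only, as Rad51ap1 and Brca1 entered the test only through vehicle. Both counts were 0 without the filter on dim genes (limma). With TC these were Rad51ap1 (-1.17 ± 0.20; adjusted p = 0.00735) and Brca1 (-0.72 ± 0.18; 0.0428). With S2101 they were Rad51ap1 (-1.56 ± 0.20; adjusted p = 0.0021, limma), Brca1 (-0.86 ± 0.18; 0.0225) and Topbp1 (-0.43 ± 0.10; 0.0375). Chek1 was at -0.59 with TC and -0.66 with S2101, and Clspn at -0.46 and -0.59. None of the 15 rose with either compound, where 4.36% of all genes did with TC and 3.37% with S2101. Directly between the compounds 0 of the 15 genes passed (limma) and 0 had an unadjusted p under 0.05, while 0.033% of all genes tested passed. The TC minus S2101 difference was 0.38 for Rad51ap1, with a 95% interval of -0.13 to 0.89, and 0.14 for Brca1, with an interval of -0.33 to 0.62. S2101 gave the lower signal for all 5 genes that fell, and for 9 of the 15. As doses are not stated, these values stand side by side and are not a comparison of the compounds' strength.

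**Figure D3:**
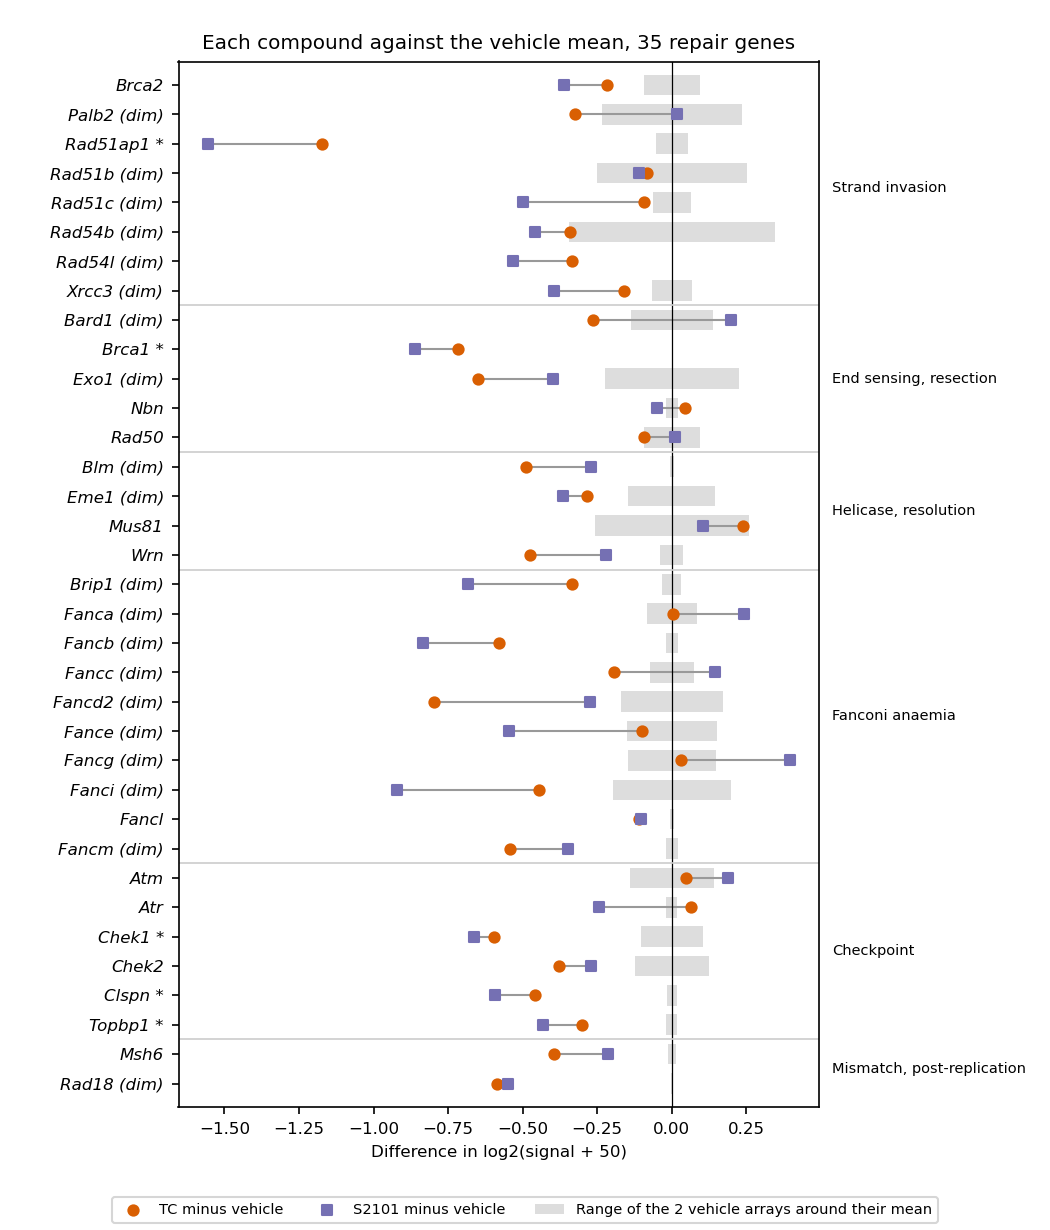
Difference in log2(signal + 50) of TC (circles) and S2101 (squares) from the vehicle mean for the 35 genes; grey bars span the 2 vehicle arrays, "dim" marks genes under the filter and an asterisk the 5 that passed in the inhibitor comparison. Rad51ap1 lies at -1.17 and -1.56, and the bars of Rad54b and Mus81 are wider than their differences.

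Of 53 further recombination, Fanconi and checkpoint genes, 39 were tested. Of these 3 fell, 1 rose and the other 35 missed the threshold, and the median difference was -0.15. Over all genes tested 3.74% were called lower and 4.28% higher. At an unadjusted p under 0.05, 10 of the 39 were lower and 2 higher, where 10.4% of all genes tested were lower and 11.9% higher. Ube2t and Faap24 reached the filter only through the vehicle arrays (means of 152 and 154 with the inhibitors, against 214 and 207 with vehicle). Ube2t is among the 10 (unadjusted p = 0.0475, limma). The count of 10 and the median of -0.15 are therefore descriptions only. Timeless, a fork protection factor that works with claspin, had 236 with TC and 222 with S2101, against 378 and 364 with vehicle (-0.60 ± 0.14; adjusted p = 0.0237, limma). The histone variant gene H2ax, whose product marks breaks, had 469 with TC and 553 with S2101, against 689 and 724 with vehicle (-0.43 ± 0.12; adjusted p = 0.047, limma). Rmi1, a partner of BLM, had 1537 with TC and 1633 with S2101, against 2246 and 1884 with vehicle (-0.37 ± 0.10; adjusted p = 0.0476, limma). These 3 genes were lower on both inhibitor arrays. Zswim7, of the Shu complex of homologous recombination, was higher on both, at 799 and 751 against 565 and 599.9 (0.38 ± 0.10; adjusted p = 0.0496, limma). With every gene tested, dim or not, none of the 4 passed (adjusted p between 0.126 and 0.155, limma), although each had an unadjusted p under 0.05. By order of arrays, 20 of 51 were below and 7 above, where 22.2% of all genes were below and 21% above.

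Few genes of the other repair routes passed, and differences between the lists were not tested. Over all genes tested 3.74% were called lower and 4.28% higher, so few calls in lists this short are near the share over all genes. None of 7 end-joining genes passed (limma; median 0.04), nor did any of 3 further mismatch repair genes (median -0.07) or 10 nucleotide excision repair genes (median 0.16). At an unadjusted p under 0.05, 1 end-joining gene was higher and 0 genes of the other 2 lists differed. Over all genes tested 10.4% were lower and 11.9% higher at that level. Pms2, of the mismatch repair list, reached the filter only through the vehicle arrays (means of 173 with the inhibitors and 240 with vehicle). The median of -0.07 is therefore a description only. Of 10 base excision repair genes, Parp1, the sensor of strand breaks, fell, with 1489 with TC and 1304 with S2101, against 1728 and 2004 with vehicle (-0.40 ± 0.10; adjusted p = 0.0374, limma). The other 9 did not pass, and neither did Parp1 with every gene tested (adjusted p = 0.142, limma). By order of arrays, 6 of 14 base excision repair genes were below both vehicle arrays and 1 above. For nucleotide excision repair 0 of 13 were below and 6 above. End joining had 2 of 11 below and 3 above, and further mismatch repair 1 of 4 below and 0 above. Over all genes 22.2% were below and 21% above.

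**Figure D4:**
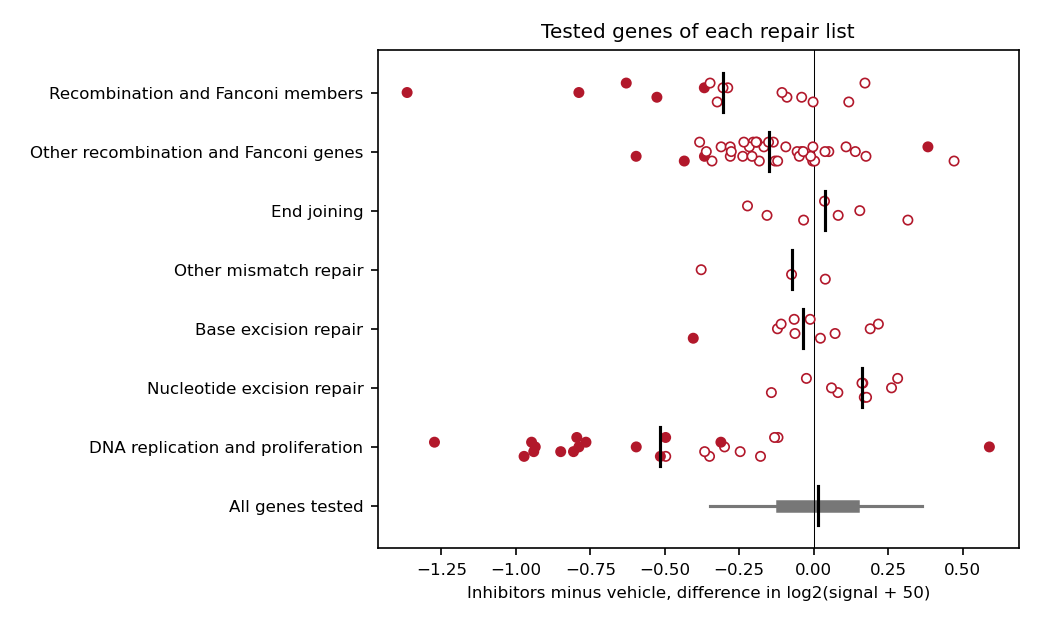
Inhibitor minus vehicle difference in log2(signal + 50) for each tested gene of 7 lists (points, filled where adjusted p was under 0.05; black lines are medians), with all 9097 genes below (thick bar, quartiles; thin line, 5th to 95th percentile). The medians are -0.30 for the recombination and Fanconi genes, -0.51 for replication and proliferation genes and 0.01 for all genes. The list medians are descriptions only, as some genes, among them Rad51ap1, Brca1, Chek1 and Gins1, reached the filter only through vehicle.

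Genes of DNA replication and proliferation fell too. Of 23 tested, 14 were called lower and 1, the activator E2f2, rose (0.59 ± 0.10; adjusted p = 0.0045, limma), with a median of -0.51. Over all genes tested 3.74% were called lower and 4.28% higher. Gins1 was among those called lower but reached the filter only through the vehicle arrays (means of 160 with the inhibitors and 306 with vehicle). The count of 14 and the median are therefore descriptions only. With every gene tested, dim or not, 10 were called lower, without Mcm4, Pcna, Gins1 and Gins2, and E2f2 still passed. The widest falls were in the cyclin gene Ccne2 (-1.27), Birc5 (-0.97), the helicase subunit gene Mcm5 (-0.95) and Mki67 (-0.94). By order of arrays, 26 of 28 were below both vehicle arrays, where 22.2% of all genes were. The repressor E2f7, from a list of 17 G1 and E2F genes, fell (267 with TC and 236 with S2101, against 447 and 506 with vehicle; -0.80 ± 0.13; adjusted p = 0.00512, limma), and the other 15 tested did not pass. At an unadjusted p under 0.05, 5 of the 16 tested were lower and 3 higher, where 10.4% of all genes tested were lower and 11.9% higher. With every gene tested, dim or not, E2f7 did not pass (adjusted p = 0.0604, limma). All 8 myoblast and myotube markers were bright and none passed (limma; 1 lower at an unadjusted p under 0.05), with summed signals of 79416 and 71784 with the inhibitors, against 74611 and 75039 with vehicle. Of 13 markers of fibroblasts, endothelium, leukocytes, fat and neurons, 5 were at or above the filter and the fibroblast gene Dcn fell, by 0.23 on the log2 scale (adjusted p = 0.048, limma; 0.171 with every gene tested). Their summed signals were 14546 and 15070.3 with TC and S2101, against 17319 and 17226 with vehicle. Pecam1, Ptprc, Adipoq and Snap25 had signals under 25 on every array, but these are picked from the 13. The leukocyte marker Cd14, like Dcn, was at or above the filter, so transcripts of other cell types were not absent throughout.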

How the data were processed

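Gene expression was measured on 4 Affymetrix arrays, 1 per sample, from 250 ng of total RNA each, per the labels' protocols. The deposited values are MAS5 signal intensities on a linear scale, which the authors made with MAS5 and Affymetrix Expression Console, per the submitters' processing notes. Their versions and any scan batches are not stated. Each array was scaled to the same 2% trimmed mean, 500.0, found from the values, and array medians ran between 63.4 and 75.1. On the log2 scale arrays correlated at 0.987 to 0.990. With 4 arrays the precision is limited by their number.

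Of 45101 probe sets, 34945 carried 1 symbol, 932 several and 9160 none, and 64 array controls were left out. The 9097 of 18193 genes with a mean signal over the 4 arrays of 178.8 (the median gene) or more entered the tests. The offset of 50 in log2(signal + 50) is 10% of the trimmed mean and understates changes of dim genes. The test was limma 3.58.1 under R 4.3.3, with lmFit, an intensity trend in eBayes, and Benjamini-Hochberg adjustment at 0.05. Inhibitor against vehicle arrays left 2 residual degrees of freedom, to which the prior added 8.08. With 3 groups 1 was left, from the vehicle pair, and the prior added 8.37. The fits were tested on simulated data. Grouping TC with S2101 was decided here and is not in the labels. Any of the 37 genes could be named, and of each further list up to 4 genes past the test with the largest difference. E2f2, Dcn, the other markers and genes named for how they reached the filter were singled out after their values were seen. The genes and lists were chosen with earlier results of these data known. Promoter windows are those of RefSeq (GRCm38.p6).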

Additional observations from a re-analysis of the deposited data

How the results depend on the processing

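No paired analysis was possible because each compound has 1 array and the labels number the compounds, not replicates shared with vehicle. The 5 genes called lower were the same 5 with offsets of 2% and 50% of the trimmed mean and with quantile normalization, and 4 of them without an intensity trend, where Topbp1 did not pass. The count was 1 with no filter on dim genes (Rad51ap1), 1 with a filter at the 75th percentile, where Topbp1 was the only gene tested, and 2 with probe sets averaged, where Brca1 and Chek1 fell under the filter and Clspn was tested but did not pass (adjusted p = 0.0576, limma). It ranged from 2 to 3 when single arrays were left out. No gene of the 37 was called higher and no TC against S2101 difference passed at any setting run (limma). The TC count of 2 was 0 with no filter, 0 with the 75th percentile filter, 1 with quantile normalization and 1 without an intensity trend. The S2101 count of 3 was 0 with no filter, 1 with the 75th percentile filter and 2 without an intensity trend. The compound counts have no value without a vehicle array, since no residual degrees of freedom are left. The median of -0.30 was -0.19 with the 50% offset, -0.37 with the 75th percentile filter, -0.16 with probe sets averaged, and -0.32 to -0.24 when single arrays were left out. Fewer genes tested and fewer arrays enter the filtered and left-out settings by construction, and the cause of the other changes was not tested. Over all genes, the counts called lower and higher were 123 and 143 with no filter, 198 and 259 with the 75th percentile filter, 207 and 216 without an intensity trend, and 218 and 283 without vehicle 2, against 340 and 389. Signals under about the offset of 50, as for Bard1 and Xrcc3, have differences set largely by it.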
